A study of Homo sapiens with 6 samples.

Results

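Genes of the lysosome were followed in KG1a after exposure to 7l, an agent known here only by its code name. KG1a is an established line of CD34-positive blasts that came from human acute myeloid leukaemia. The members are 39 genes chosen by role: 23 hydrolases of the lumen (the cofactor gene PSAP counted with them), 6 proteins of the lysosomal membrane, 8 subunits of the proton pump and the transcription factors TFEB and TFE3. Probes were taken by their gene symbol, and 38 of the 39 genes were represented, by 64 of the 47322 probes; CD63 was not analysed here. The 38 genes are part of 20046 genes named on the arrays. The treated group held 3 arrays of KG1a cells exposed to 7l at 2 µM for 24 h, and the control group held 3 arrays of KG1a cells. All cells were of this single line, grown in RPMI medium with fetal bovine serum. What the control cells received, and for how long, was not stated in the labels. The labels call the samples triplicates without saying whether they were separate cultures, so the p-values below measure the spread between these arrays, which may be technical.

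Lysosomes break down proteins, glycans and lipids with hydrolases that work at acid pH. The acid is made by the V-ATPase, a rotary proton pump with a soluble V1 sector that splits ATP and a V0 sector in the membrane that carries protons. Heavily glycosylated membrane proteins line the organelle, and TFEB and TFE3 bind the letters CACGTG within a longer element found before many lysosomal genes, through which these genes can be switched on together.

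Values are log2 probe intensities, changes are 7l minus control, and a gene was called at a limma adjusted p under 0.05 (Benjamini-Hochberg over all 12334 genes tested). Each array gave 22815 probes above a background level of 2.46 on the log2 scale, which is the 95th percentile of probes for olfactory and taste receptors and keratin-associated proteins. The equal counts go with ranked intensity values that match between arrays at 97.8% of ranks, and they say nothing of array quality. Of 7 genes that mark the line 6 were tested, and FGFR1 stood under the filter on mean intensity. CD34, the stem cell antigen, measured 11.44 to 11.48 in control and 11.14 to 11.33 in treated cells, and the transcription factor gene MYB fell by 0.50 on the log2 scale (limma adjusted p = 0.0442). The summed intensity of the 7 genes was 6555 to 6615 in control and 5449 to 5705 in treated cells, with no overlap. This sum moved with the treatment as the results below do, and its part in them was not tested. As a sum of linear intensity it weighs bright genes such as CD34 most. Of the 6 tested marker genes 2 changes were positive and 4 negative. SPN (0.07), HLA-DRA (0.10), CD7 (-0.04) and PTPRC (-0.28) overlapped between groups. Of 14 monocyte and macrophage markers with a probe 8 were tested, with 0 called by limma. Of these markers 1 was higher at an unadjusted p under 0.05 (CD14, 0.75 ± 0.29 SE), where all genes gave 10.8% higher. Their summed intensity was 86.6 to 100.1 in control and 81.8 to 105.2 in treated cells, and FCGR1A sat at the floor of 1 on every array. In such bulk samples a change in the make-up of the culture and a change in RNA per cell cannot be told apart.

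With 7l, the sialidase gene NEU1 and the alpha-galactosidase gene GLA rose, 1.81-fold and 1.75-fold, and these were the 2 members called. Of 33 tested members 2 were called higher, 0 lower and 31 were not called, where 1.22% of all genes tested were called higher and 1.16% lower. The 5 members under the intensity filter were HEXA, CTSH, CTSS, CTSZ and TFEB. The median change of the tested members was 0.26 on the log2 scale beside 0.01 for all genes tested, and 24 of the 33 changes were positive (51.1% of all genes). In 19 tested members all 3 treated arrays lay above all 3 control arrays, and in 0 of the tested members did they lie below, against 15.1% and 13.8% of all genes. At an unadjusted p under 0.05, limma gave 15 members higher and 0 lower, where the shares over all genes were 10.8% and 9.72%. By class, 8 of 8 tested pump genes, 4 of 5 membrane protein genes and 11 of 19 hydrolase genes had positive changes, with medians of 0.31, 0.26 and 0.13. The pump median stayed between 0.29 and 0.36 without any 1 array. The membrane median was 0.15 without the first control array. The hydrolase median depended most on the choices made. It was 0.05 without the first control array, 0.00 with no filter and 0.26 with probes averaged per gene. With no filter the 4 hydrolases under it entered, and the 0.00 was the change of CTSS, which sat at the floor on every array.

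**Figure D1:**
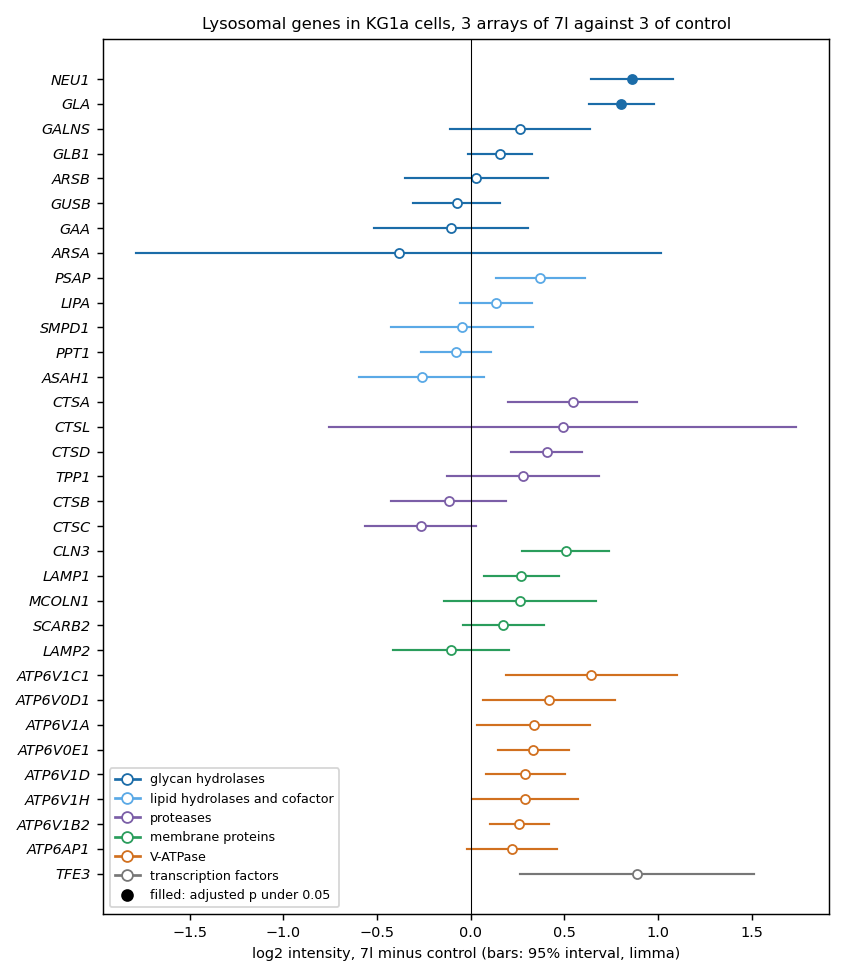
Log2 change (7l minus control, x axis) of each of the 33 tested lysosomal genes, ordered by class, with the 95% interval of limma as a bar. The filled points of NEU1 and GLA mark the called genes, all 8 V-ATPase subunits lie to the right of 0, and hydrolases lie on both sides.

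Both called members were glycan-degrading enzymes, of which 8 of 9 were tested; the other 6 were not called. NEU1 encodes the sialidase that trims terminal sialic acids and, in the lysosome, works in a complex with the products of CTSA and GLB1. It measured 7.03, 7.07 and 6.84 in control cells and 7.83, 7.83 and 7.85 in treated cells (log2 intensity of each array). The treated arrays were nearly equal and all stood clear of the control arrays. The change was 0.86 ± 0.09 (SE, limma adjusted p = 0.0240; 95% interval 0.64 to 1.08). GLA encodes alpha-galactosidase A, the enzyme of globoside breakdown that is lost in Fabry disease. Its control arrays read 8.52, 8.47 and 8.59 and its treated arrays 9.33, 9.36 and 9.30. Again the groups did not overlap, and the change was 0.80 ± 0.07 (SE, limma adjusted p = 0.0182). Both calls needed all 6 arrays: without any 1 array both genes stayed higher, at 0.79 to 0.90 for NEU1 and 0.78 to 0.83 for GLA, with adjusted p-values of 0.0623 to 0.105.

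The remaining glycan enzymes were closer to the controls. GLB1, the beta-galactosidase that shares a complex with NEU1, measured 8.31, 8.23 and 8.20 in control and 8.43, 8.38 and 8.38 in treated cells. Its groups did not overlap but the change was small, 0.16 ± 0.07 (SE, limma adjusted p = 0.279), and a second tested probe gave 0.14. GALNS, a sulfatase that acts on keratan sulfate and chondroitin sulfate, measured 0.26 ± 0.15 with groups that overlapped. GUSB, the beta-glucuronidase often used as a reference transcript, measured -0.08 ± 0.09, with a 95% interval of -0.31 to 0.16. GAA, the acid glucosidase of glycogen breakdown, measured -0.11 ± 0.16, and ARSB, the sulfatase of dermatan sulfate, 0.03 ± 0.15. ARSA, which removes sulfate from sulfatide, had the lowest change of any tested member at -0.38 ± 0.55. This rested on 1 array: its control values were 4.47, 4.57 and 4.42 and its treated values 4.98, 2.89 and 4.44, and without the second treated array the change was 0.22. HEXA, the alpha subunit of hexosaminidase A, was not well above background on any array.

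The promoter windows of NEU1, GLA and GAA are shown because they set the called genes beside a gene that was not called. Each holds 300 bases on the gene's own strand, from 250 bases before to 50 after the start, from RefSeq on GRCh38.p14, and capitals mark every CACGTG. The NEU1 window lies at chr6:31862772-31863071 and the GLA window at chrX:101407876-101408175, both on the minus strand, and the GAA window at chr17:80101331-80101630 on the plus strand.
NEU1: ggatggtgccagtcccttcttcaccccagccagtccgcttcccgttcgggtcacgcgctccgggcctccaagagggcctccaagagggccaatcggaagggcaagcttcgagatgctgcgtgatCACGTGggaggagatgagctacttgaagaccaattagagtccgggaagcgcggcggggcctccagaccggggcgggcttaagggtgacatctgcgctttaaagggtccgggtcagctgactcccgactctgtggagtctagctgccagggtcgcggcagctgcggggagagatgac
GLA: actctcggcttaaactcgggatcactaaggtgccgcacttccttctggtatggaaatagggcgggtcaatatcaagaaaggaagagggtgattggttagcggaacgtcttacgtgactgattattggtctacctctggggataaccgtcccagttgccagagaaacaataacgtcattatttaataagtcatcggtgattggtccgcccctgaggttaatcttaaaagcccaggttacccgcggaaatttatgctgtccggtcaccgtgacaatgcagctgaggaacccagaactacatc
GAA: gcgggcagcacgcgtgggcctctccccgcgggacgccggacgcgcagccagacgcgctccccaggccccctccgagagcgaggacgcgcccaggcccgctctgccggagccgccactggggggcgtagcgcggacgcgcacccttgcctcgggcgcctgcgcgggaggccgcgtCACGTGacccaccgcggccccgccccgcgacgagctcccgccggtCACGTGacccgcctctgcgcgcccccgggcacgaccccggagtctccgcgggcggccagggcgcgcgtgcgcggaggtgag
NEU1 carried the letters once, starting at position -126 from the gene's start, GLA carried none, and GAA carried them at -76 and -31, each time within TCACGTGA. Of the 9 tested members whose window held the letters, 8 had positive changes and GAA alone a negative one. Whether the letters go with the changes was not tested.

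The enzymes and the cofactor of lipid breakdown had no called member among 5 tested. By limma 1 member was higher at an unadjusted p under 0.05, where all genes gave 10.8% higher and 9.72% lower. The same member was called higher with a trended and robust prior, against 7.21% of all genes. That member was PSAP, whose protein is cut into the saposins that present sphingolipids to their hydrolases. Its control arrays read 9.92, 10.05 and 10.18 and its treated arrays 10.43, 10.47 and 10.37. Treated arrays were all above the controls, by 0.37 ± 0.09 (SE, limma adjusted p = 0.115), and a second probe gave 0.30 with no overlap either. LIPA, the acid lipase of cholesteryl esters, was above the controls on all 3 arrays by 0.13 ± 0.08, a difference that did not pass (adjusted p = 0.395). PPT1, which removes palmitate from proteins, measured -0.08 ± 0.07, and ASAH1, acid ceramidase, -0.26 ± 0.13. SMPD1, acid sphingomyelinase, depended on the probe: tested probe by probe, the brighter probe gave -0.05 ± 0.16 and the other 0.72 ± 0.24, the latter with every treated array above every control array, and neither was called.

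Among the proteases 6 of 9 were tested and 0 were called by limma. At an unadjusted p under 0.05, 2 were higher and 0 lower, where all genes gave 10.8% and 9.72%. CTSD encodes cathepsin D, the main aspartic protease of the lysosome. It measured 7.34, 7.34 and 7.25 in control cells and 7.78, 7.74 and 7.64 in treated cells. The groups did not overlap, and the change of 0.41 ± 0.07 (SE) had a limma adjusted p of 0.0652. CTSA encodes cathepsin A, a carboxypeptidase that also protects NEU1 and GLB1 protein in their complex. Its control values were 6.78, 6.83 and 6.41 and its treated values 7.13, 7.25 and 7.27, so that all treated arrays were higher. The change was 0.54 ± 0.14 (SE, limma adjusted p = 0.113). The 3 genes of the complex thus measured 0.86 for NEU1, 0.54 for CTSA and 0.16 for GLB1, and 1 of them was called (1.22% of all genes called higher). Each had treated arrays above all control arrays, against 15.1% of all genes. With its probes averaged GLB1 measured 0.006. The 3 genes were not tested as a set. TPP1, a tripeptidyl peptidase, measured 0.28 ± 0.16 with overlapping groups.

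Of the cysteine cathepsins, 3 were tested and none was called. CTSC, which activates the serine proteases of leukocyte granules, read 10.71, 10.77 and 10.81 in control cells and 10.72, 10.40 and 10.37 in treated cells. The first treated array lay inside the control range and the other treated arrays below it, for a change of -0.27 ± 0.12 (SE, limma adjusted p = 0.282). All 4 of its probes were negative, from -0.09 to -0.35, and 2 of them did not overlap between groups. CTSB measured -0.12 ± 0.12, and CTSL, a dim probe that ran from 2.63 to 4.27 in control cells alone, 0.49 ± 0.49. CTSH read 2.60, 2.51 and 3.32 in control cells, just above background, and 0.22, 0.00 and 0.00 in treated cells. Its treated arrays were all not well above background, which makes it at least 1.28-fold lower. Being under the filter it was not tested. With no filter its limma adjusted p was 0.0228, which rests on treated values at or near the floor. With values raised to the background level the CTSH change was -0.35. Its second probe was not above background on any array. CTSS sat at the floor on all 6 arrays and CTSZ was not well above background on any.

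**Figure D2:**
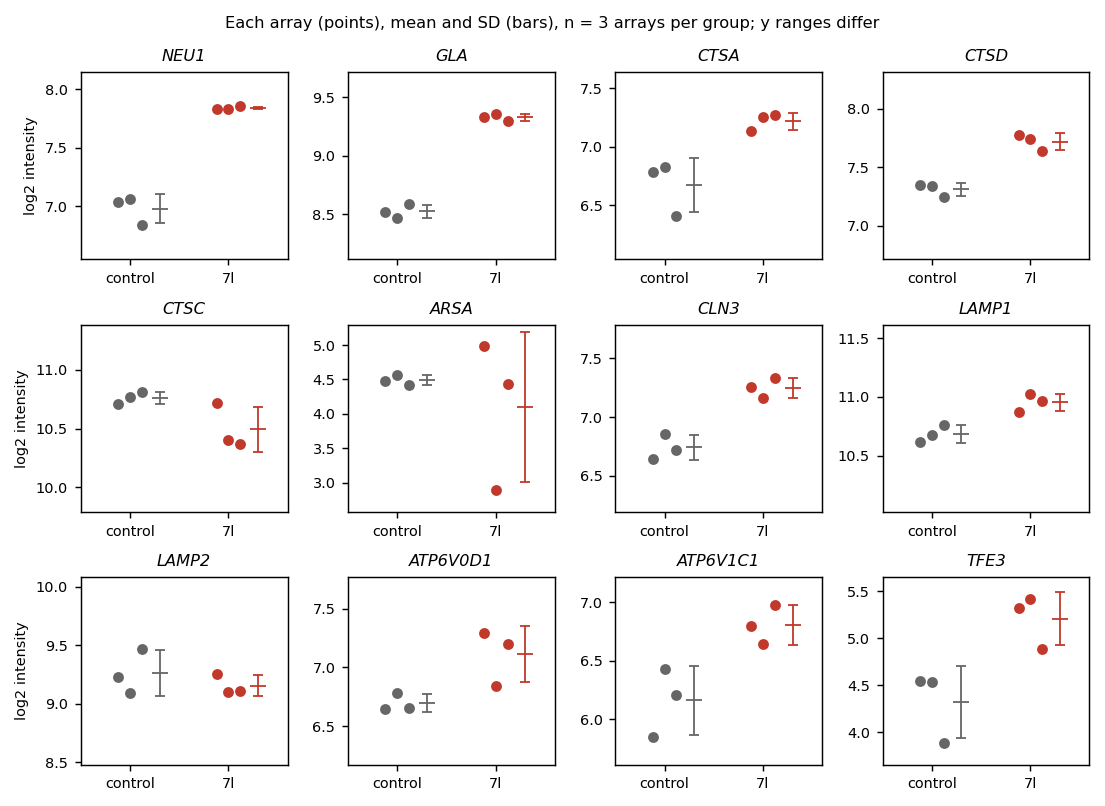
Log2 intensity of 12 lysosomal genes on each control array (grey) and each 7l array (red), with the mean and SD of 3 arrays beside the points; the range of the y axis differs between panels. NEU1 and GLA show wide gaps between groups, CTSD, CTSA and CLN3 smaller ones, and the low ARSA value is a single treated array.

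The window of CTSA is shown as that of the uncalled partner of NEU1; it lies at chr20:45891085-45891384 on the plus strand of GRCh38.p14, with CACGTG in capitals.
CTSA: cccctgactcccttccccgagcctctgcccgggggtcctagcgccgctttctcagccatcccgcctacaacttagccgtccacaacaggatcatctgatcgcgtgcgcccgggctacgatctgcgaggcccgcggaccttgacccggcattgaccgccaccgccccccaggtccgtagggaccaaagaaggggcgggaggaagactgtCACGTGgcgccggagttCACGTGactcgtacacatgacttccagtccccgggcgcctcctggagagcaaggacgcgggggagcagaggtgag
The letters start at -42 and -25, the second time within TCACGTGA.

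Of the 6 membrane protein genes 5 were tested. None was called by limma and the median change was 0.26. At an unadjusted p under 0.05, 2 were higher and 0 lower, where all genes gave 10.8% and 9.72%. CLN3 encodes the membrane protein lost in juvenile Batten disease. It measured 6.65, 6.86 and 6.72 in control cells and 7.26, 7.16 and 7.33 in treated cells. All treated arrays exceeded all controls, by 0.51 ± 0.09 (SE, limma adjusted p = 0.0630). Its second probe gave a larger difference, 0.75 ± 0.11, also with no overlap, and with both probes averaged CLN3 passed (0.63, adjusted p = 0.0452). LAMP1, a main glycoprotein of the lysosomal membrane, measured 10.61, 10.67 and 10.76 in control cells and 10.88, 11.02 and 10.96 in treated cells. The groups were close but did not overlap, and the change was 0.27 ± 0.08 (SE, limma adjusted p = 0.154).

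The other membrane genes differed less. SCARB2, the receptor that carries glucocerebrosidase to lysosomes, read 8.92, 8.95 and 9.03 in control and 9.12, 9.05 and 9.26 in treated cells, a change of 0.17 ± 0.09 (SE, limma adjusted p = 0.332). Its groups were apart by a narrow gap. MCOLN1, the cation channel through which lysosomes release calcium, measured 0.26 ± 0.16 with overlapping groups. LAMP2 read 9.23, 9.09 and 9.47 in control cells and 9.26, 9.10 and 9.11 in treated cells on its brightest probe, which overlapped fully (-0.11 ± 0.12). Its 6 probes did not all point the same way. The platform table gives 2 of them the accession of the A isoform, the receptor of chaperone-mediated autophagy, and these gave 0.20 and 0.21. The 3 with the accession of the B isoform gave -0.11, 0.05 and 0.05, and the last, on another transcript, 0.28. No LAMP2 probe was called, and an accession names the transcript of a probe's design, not which isoforms it can tell apart.

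The CLN3 window is shown because that gene passed with its probes averaged, and the LAMP1 window because it held the most copies of CACGTG of any member's window. They lie at chr16:28492025-28492324 on the minus strand and chr13:113296989-113297288 on the plus strand of GRCh38.p14.
CLN3: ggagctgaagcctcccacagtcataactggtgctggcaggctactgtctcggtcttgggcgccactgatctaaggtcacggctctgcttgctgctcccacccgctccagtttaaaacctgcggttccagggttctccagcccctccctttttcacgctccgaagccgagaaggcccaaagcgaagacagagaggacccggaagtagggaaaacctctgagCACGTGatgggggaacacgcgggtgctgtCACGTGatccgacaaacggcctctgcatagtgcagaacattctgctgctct
LAMP1: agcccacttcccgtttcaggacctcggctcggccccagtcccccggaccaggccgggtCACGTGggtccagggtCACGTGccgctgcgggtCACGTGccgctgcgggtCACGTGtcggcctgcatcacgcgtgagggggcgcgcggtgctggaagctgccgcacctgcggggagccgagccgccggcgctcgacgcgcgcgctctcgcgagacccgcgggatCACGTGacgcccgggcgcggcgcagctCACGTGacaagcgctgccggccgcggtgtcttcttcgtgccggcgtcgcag
CLN3 held CACGTG at -30 and -1, and LAMP1 held it at 6 places from -192 to -1.

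Each of the 8 V-ATPase genes, on its brightest probe, had all 7l arrays above all control arrays, against 15.1% of all genes. None was called. The 8 changes lay between 0.22 and 0.64 with a median of 0.31 on the log2 scale. By limma 7 of the 8 were higher at an unadjusted p under 0.05, the exception being ATP6AP1, against 10.8% of all genes. The limma adjusted p-values ran from 0.0914 for ATP6V0E1 to 0.278 for ATP6AP1. With a trended and robust prior, which estimates the spread of a gene from genes of like intensity, all 8 were called higher, where 7.21% of all genes were called higher and 6.59% lower. Under that prior 5 of 19 tested hydrolases and 2 of 5 membrane proteins were called higher and CTSC was called lower. Whether the classes differ was not tested, since the members were chosen with results of these data known.

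ATP6V1C1, a V1 subunit that couples both sectors, had the largest difference of the 8. It read 5.85, 6.43 and 6.21 in control cells and 6.80, 6.64 and 6.98 in treated cells, with a change of 0.64 ± 0.18 (SE, limma adjusted p = 0.140). The control arrays spread widely, and a dimmer probe gave 0.28 with overlapping groups. ATP6V1A, whose product holds the catalytic ATP sites, measured 10.06, 9.92 and 10.29 in control and 10.51, 10.38 and 10.39 in treated cells (0.33 ± 0.12). ATP6V1B2, its partner in the ATP-splitting ring, had the smallest standard error of the 8. It read 9.08, 9.03 and 9.08 in control and 9.33, 9.34 and 9.29 in treated cells. The change of 0.26 ± 0.06 (SE) had a limma adjusted p of 0.105.

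The stalk and regulatory subunits gave like values. ATP6V1D, of the central stalk, measured 9.02, 9.19 and 9.19 in control and 9.37, 9.49 and 9.40 in treated cells, a change of 0.29 ± 0.08. ATP6V1H, a subunit that regulates ATP splitting, measured 8.21, 8.31 and 8.27 in control and 8.75, 8.39 and 8.52 in treated cells, a change of 0.29 ± 0.11. A dimmer ATP6V1H probe, designed on another transcript, gave -0.32 ± 0.15, and with both averaged the gene stood at -0.01. In V0, ATP6V0D1 read 6.65, 6.78 and 6.65 in control and 7.29, 6.84 and 7.20 in treated cells. The second treated array was only just above the controls, and the change was 0.42 ± 0.14 (SE, limma adjusted p = 0.191). ATP6V0E1 measured 10.75, 10.84 and 10.76 against 11.19, 11.04 and 11.11, and both of its probes were higher with no overlap (0.33 and 0.24). ATP6AP1, an accessory protein needed for pump assembly, read 10.16, 10.35 and 10.33 in control and 10.52, 10.38 and 10.59 in treated cells. Its gap was the narrowest, at 0.22 ± 0.10 for the change.

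**Figure D3:**
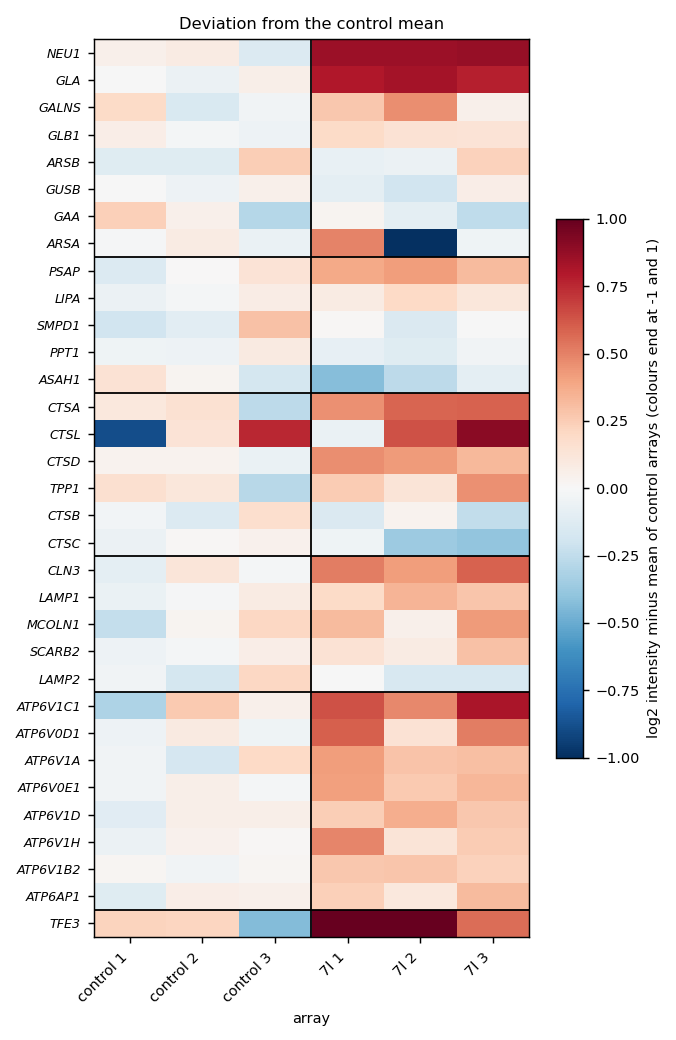
Log2 intensity of each tested member (rows, by class) on each array (columns), minus the mean of its 3 control arrays; colours end at -1 and 1. All V-ATPase rows are warm on the 7l arrays, though to unequal degrees, whereas the hydrolase blocks mix warm and cool rows.

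The median deviation of the 8 pump genes from their control means was -0.05, 0.06 and 0.03 on the control arrays and 0.42, 0.27 and 0.31 on the treated arrays. For the 19 hydrolases the treated arrays stood at 0.08, 0.13 and 0.11, and for the 5 membrane proteins at 0.19, 0.08 and 0.29. The second treated array was the lowest of its group for the pump and the membrane proteins but not for the hydrolases. The ATP6V0D1 window, shown as the pump subunit with the letters, lies at chr16:67481108-67481407 on the minus strand of GRCh38.p14.
ATP6V0D1: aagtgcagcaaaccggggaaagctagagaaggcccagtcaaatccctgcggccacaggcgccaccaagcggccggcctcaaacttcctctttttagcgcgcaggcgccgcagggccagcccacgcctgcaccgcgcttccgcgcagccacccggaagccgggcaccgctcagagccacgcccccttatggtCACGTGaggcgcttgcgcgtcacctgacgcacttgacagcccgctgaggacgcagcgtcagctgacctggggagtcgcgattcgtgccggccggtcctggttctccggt
It held CACGTG once, at -59, within TCACGTGA.

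Of the transcription factors, TFE3 had the highest change of any tested member but a wide spread. It read 4.55, 4.54 and 3.89 in control cells and 5.32, 5.42 and 4.88 in treated cells. All treated arrays were higher, by 0.89 ± 0.25 (SE, limma adjusted p = 0.139; 95% interval 0.26 to 1.51). With an offset of 16, which shrinks changes of dim genes, the change was 0.55. TFEB was not well above background on any array: 5 of the 6 stood within 0.01 of the floor and the second treated array at 2.13.

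Where members had several probes, these mostly gave the same sign. Of 53 tested probes 35 were positive and 18 negative, and of 12 members with several tested probes 8 had all of one sign. ARSB, SMPD1, LAMP2 and ATP6V1H had probes of both signs. Tested probe by probe over 23661 probes, NEU1 and GLA again gave the 2 probes called higher (0.380% of all probes) and 0 were called lower (0.186%).

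**Figure D4:**
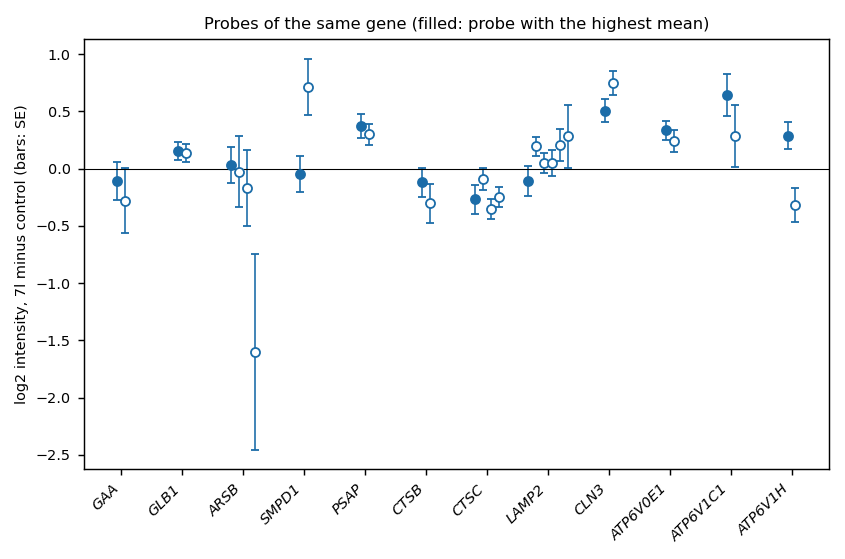
Log2 change (7l minus control) with its SE for every tested probe of the 12 members with several tested probes; filled points mark the probe with the highest mean. CTSC probes all lie below 0, PSAP and CLN3 probes all above, and SMPD1 and ATP6V1H probes fall on opposite sides.

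The rest of the pathway was read from 95 further lysosomal genes, of which 72 were tested. In this wider list 3 genes were called higher and 1 lower, against 1.22% and 1.16% of all genes. Its median change was 0.11, beside 0.01 for all genes tested. NPC1 and SIDT2, both membrane proteins, the first an exporter of cholesterol, rose by 0.61 ± 0.08 and 0.59 ± 0.07 (SE, limma adjusted p = 0.0377 and 0.0331). IDS, the iduronate sulfatase of heparan and dermatan sulfate breakdown, rose by 0.49 ± 0.08 (limma adjusted p = 0.0461), though not with all its probes averaged (adjusted p = 0.0833). RRAGB, a Rag GTPase that ties mTORC1 to the lysosome, fell by 0.58 on the log2 scale (limma adjusted p = 0.0391), but with all its probes averaged it measured 0.27. The calls of these 4 genes too were lost without any 1 array.

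The further genes share their arrays with the members and are no independent evidence for a class. Of all genes tested 51.1% had positive changes, 15.1% had treated arrays above all controls and 13.8% had them below. Of 20 tested membrane proteins 15 were positive (median 0.29), and 11 had treated arrays above all controls and 1 below. Of 20 tested hydrolases 7 were positive (median -0.10), with 4 above and 6 below. CTSF was the lowest of these at -0.64 ± 0.30 and SIAE the highest at 0.53 ± 0.74, and neither passed. The SIAE probe is dim, above background on 1 control array and 1 treated array. With values raised to the background level the SIAE change was -0.02. SLC38A9, an amino acid sensor of the lysosomal membrane, measured 0.62 ± 0.17 and the peptide transporter gene ABCB9 -0.46 ± 0.24, neither of which passed.

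Of 11 further pump subunits 8 were positive (median 0.15) and 6 had treated arrays above all controls (15.1% of all genes). By limma 0 were called and 3 were higher at an unadjusted p under 0.05 (10.8% of all genes). With the trended and robust prior 4 were called higher (7.21% of all genes). ATP6V1B1 and ATP6V0D2, at the ends of this list with 1.26 ± 0.50 and -1.08 ± 1.16, are dim probes, and ATP6V1B1 was above background on 1 treated array and no control array. Of 21 genes of enzyme sorting and lysosomal control 11 were positive (median 0.03). TFEC, of the TFEB family, measured 1.04 ± 0.42 and GNPTG, a subunit of the enzyme that tags hydrolases with mannose 6-phosphate, -0.65 ± 0.12 (limma adjusted p = 0.0631), and neither passed. The TFEC probe is dim, above background on 1 control array and 3 treated arrays. With values raised to the background level the TFEC change was 0.76.

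**Figure D5:**
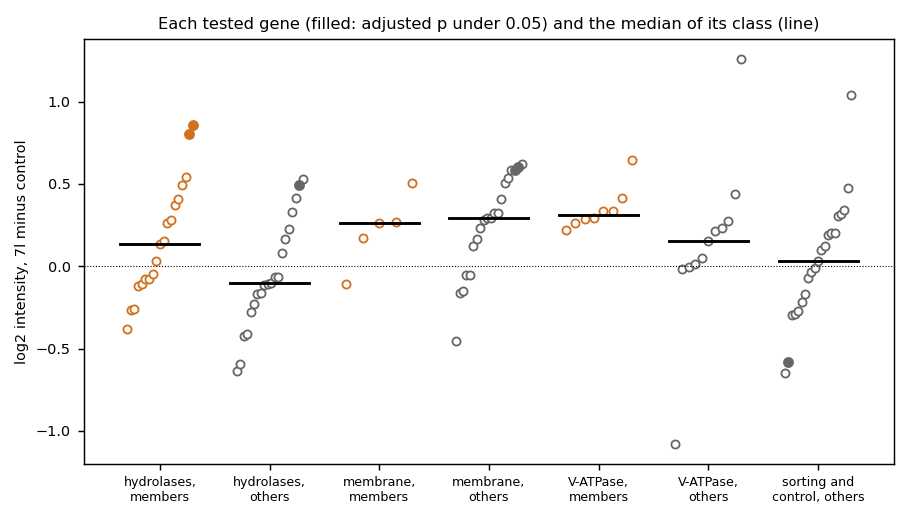
Log2 change (7l minus control) of each tested member (orange) and each further lysosomal gene (grey) by class, with the class median as a line and called genes filled. Medians run from 0.31 for the V-ATPase members to -0.10 for the further hydrolases.

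The promoter windows that were available for 27 of the 39 members were searched for the letters bound by TFEB and TFE3. CACGTG, a palindrome and so the same on both strands, stood in 10 of the 27 windows (37.0%, CD63 among them), against 17 of 72 windows of further lysosomal genes (23.6%) and 7.43% of 27305 genes. TCACGTGA, which contains CACGTG, stood in 7 (25.9%), against 9.72% of the further lysosomal genes and 1.04% of all genes. Both searches used 1 window per gene. The letters were in 5 of 17 windows of hydrolases, 4 of 5 of membrane proteins, 1 of 3 of pump subunits and 0 of the 2 of the transcription factors. TGANNNNGC, the antioxidant type of element searched on both strands, stood in 16 windows (59.3%). Its share was 45.8% in the further lysosomal genes and 42.1% in all genes. GGGCGG, also on both strands, stood in 22 (81.5%), against 80.6% of the further lysosomal genes and 44.6% of all genes. Of the tested members with a window, the 9 with CACGTG had a median change of 0.41, with 8 positive, and the 14 without it a median of 0.16, with 10 positive. For TCACGTGA the split was narrower: the 7 with it had a median of 0.27, with 6 positive, and the 16 without it a median of 0.20, with 12 positive. The ranges of the sets with and without CACGTG overlapped, from -0.11 to 0.86 and from -0.27 to 0.89. Only 3 of the 8 pump genes had a window and entered these medians, and the same split was not made over all genes. A match of letters is a description of the window and says nothing of what binds there.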

How the data were processed

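KG1a RNA was measured on 6 Illumina bead arrays, 3 per group, grouped and numbered by sample title. The authors deposited 1 table of linear probe intensity; how it was background-corrected and normalized is not stated in the labels. Ranked by size, the deposited intensity values match between arrays at 97.8% of ranks (relative tolerance 0.0001), which is the pattern of quantile normalization, so a shift of all transcripts cannot be seen. Values under 1 were raised to 1 before log2. The number of arrays limits the precision. The description labels carry other replicate numbers than the titles, the same for all arrays of a group, and were not used.

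Probes with 1 symbol in the platform table (30113) named 20046 genes; 2 listed genes were matched through older symbols. The probe with the highest mean stood for a gene, and 12334 genes with a mean above log2 1.76 were tested with limma 3.58.1 in R 4.3.3 (group as the only term, default prior, two-sided, 4 residual and 1.24 prior degrees of freedom). The test was checked on simulated data. Promoter windows are RefSeq's, the first start listed per gene. Figures used Python 3.11.15, pandas 2.3.3 and matplotlib 3.10.9.

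The members and lists were chosen with earlier results of these data known. All members are given; array values are given in full for called members, for the 2 highest and 2 lowest per class and for both transcription factors, with some others added after their values were seen. Further lysosomal genes are named if called or at either end of a list. Genes not on the table, CD63 among them, were not analysed here. Alternatives were other normalizations, filters, probe averaging, an offset, another prior, array weights, a replicate block and each array left out.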

Additional observations from a re-analysis of the deposited data

How the results depend on the processing

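Of 33 tested members 26 kept their direction in all 15 alternatives, among them 7 of 8 pump subunits. The 2 members called higher became 4 with no filter, 4 with a filter at the background level, 4 with an offset of 16, 16 with a trended and robust prior, 0 with the replicate block and 0 to 0 without any 1 array. The 0 called lower became 1 with no filter (CTSH) and 1 with the trended and robust prior (CTSC). Their median of 0.26 was 0.22 with the offset and 0.24 to 0.27 without any 1 array. Over probes, 2 higher became 19 with the trended and robust prior and 0 lower became 1 with no filter and 2 with that prior. Further lysosomal genes called higher were 5 with no filter, 7 with the offset, 17 with that prior, 0 with the block and 0 to 0 without any 1 array, against 3, and those called lower were 2, 2, 6, 0, 0 and 0 with the background filter, the offset, that prior, probes averaged, the block and any 1 array left out, against 1. Over all genes the 150 higher and 143 lower became 232 higher with no filter, 251 and 229 with the background filter, 388 and 346 with the offset, 889 and 813 with that prior, 0 and 0 with the block, and 6 to 15 and 0 to 18 without any 1 array. With probes averaged the sign turned for ARSA (0.30), ARSB (-0.44), ASAH1 (0.45), SMPD1 (0.33), LAMP2 (0.11), ATP6V1H (-0.015), RRAGB (0.27) and ABCB9 (0.020), and with array weights for SMPD1 (1.7e-05). Without any 1 array GAA ran from -0.25 to 0.010, ARSA from -0.82 to 0.22, ARSB from -0.069 to 0.15, SMPD1 from -0.14 to 0.10, SIAE from -0.16 to 1.16 and ATP6V0D2 from -1.86 to 0.079. Same-numbered arrays did not deviate together (correlations of -0.02 to 0.00), so the block uses a number only. The causes were not tested.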
